A study of Mus musculus with 6 samples.

Results

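The 40 genes described here encode receptors, ligands, secreted inhibitors, intracellular effectors and targets of Wnt signalling. They were taken by symbol from a list of pathway genes, and all 40 were found among the 47517 annotated gene symbols of the libraries. The list was chosen with earlier results of these data known. The cells were nascent hematopoietic cells of C57BL/6 mouse embryos at embryonic day 10.5, carrying the Hlf-tdTomato knock-in, a red fluorescent reporter in the locus of the blood stem cell transcription factor gene Hlf. Cells positive for the reporter and for c-Kit, the stem cell factor receptor, and negative for the leukocyte protein CD45 were sorted either from the embryo's caudal-half region (3 libraries, called caudal cells) or from the yolk sac (3 libraries). The reporter allele and the sort were common to both groups, so no library lacks the knock-in, and each library was made from 100 cells. Digestion in both groups was with 0.125% collagenase for 1 h at 37 °C. The labels do not say whether replicates came from separate embryos, so the p-values measure only the spread between these libraries, which may be technical.

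Wnt proteins are secreted lipid-modified ligands that bind the cysteine-rich domain of a Frizzled receptor. In the beta-catenin branch, a Frizzled and the coreceptor Lrp5 or Lrp6 recruit Dishevelled, the complex of Axin, Apc and Gsk3b that marks beta-catenin for destruction is held off, and beta-catenin joins Tcf and Lef factors on target genes such as Axin2, Sp5 and Lgr5. Other branches run through Ror1, Ror2 and Ryk or through planar polarity proteins without beta-catenin. In the embryonic aorta, where blood stem cells arise from hemogenic endothelium, Wnt signalling is known to act in a short window around their formation.

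Promoter sequence was found for 28 of the 40 genes in RefSeq on GRCm38.p6, with 36 start sites among them. The upstream stretches of Fzd1, the receptor gene on which the tissue comparison turned, and of Sfrp2, the most abundant secreted inhibitor, are shown 5′ to 3′ on the strand of the gene, from 250 bases before the RefSeq start to the base before it, with CpG dinucleotides in capitals. The Fzd1 stretch is chr5:4758217-4758466 on the minus strand with 12 CpG dinucleotides, and the Sfrp2 stretch is chr3:83766071-83766320 on the plus strand with 16.
Fzd1: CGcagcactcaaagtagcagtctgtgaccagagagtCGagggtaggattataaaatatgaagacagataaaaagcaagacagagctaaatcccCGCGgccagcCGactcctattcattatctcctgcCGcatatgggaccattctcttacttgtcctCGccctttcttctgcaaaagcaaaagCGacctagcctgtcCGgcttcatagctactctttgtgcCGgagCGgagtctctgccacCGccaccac
Sfrp2: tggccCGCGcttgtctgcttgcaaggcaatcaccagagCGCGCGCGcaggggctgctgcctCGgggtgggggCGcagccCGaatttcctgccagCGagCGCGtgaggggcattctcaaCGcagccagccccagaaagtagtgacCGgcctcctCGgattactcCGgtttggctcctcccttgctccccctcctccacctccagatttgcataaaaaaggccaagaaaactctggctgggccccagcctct

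The ratio of observed to expected CpG over the 300 bases from 250 before to 50 after the start was 0.75 for Fzd1 and 0.68 for Sfrp2. The median over the 36 starts was 0.75, against 0.38 over all 32851 promoters of the table.

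The 7-base word NNCAAAG with A or T at each N, which Tcf and Lef factors bind, was searched on both strands of the same windows. It also matches the motif of Sox factors, so the 2 families cannot be separated by it. At least 1 match was present at 7 of the 36 starts (19.4%), against 16.9% of all promoters. Fzd7, Wnt3 and 1 start each of Lef1, Tcf7l2 and Wnt5b held 1. Of these, Lef1, Wnt3 and Wnt5b were close to 0 in every library, and Fzd7 and Tcf7l2 were higher. Sp5, a direct Wnt target, and Dkk1, a secreted inhibitor that Wnt signalling is known to induce, each held 2. The 4 sites of Sp5 and Dkk1 are printed on the strand of the gene with the word in capitals. They were picked because both genes were close to 0 in every library.
Sp5, word starting 222 bases before the start: ttcctagagatAACAAAGacactttgtca
Sp5, word starting 104 bases before the start: ggcaaggccccCTTTGATcaggaaaatcc
Dkk1, word starting 117 bases before the start: tcctcccaaagCTTTGAAatcccatcccg
Dkk1, word starting 98 bases before the start: tcccatcccggCTTTGTTgtcttccctga

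The Sp5 promoter window is chr2:70474673-70474972 on the plus strand and that of Dkk1 chr19:30549447-30549746 on the minus strand. These starts are from RefSeq. In the GENCODE M21 annotation Dkk1 begins farther upstream, at 30549665, so both Dkk1 words lie inside that annotated gene. No word was found in the windows of Fzd1, Sfrp2 or Axin2. A match or its absence in this window describes letters only.

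Values are TPM, a transcript abundance scaled by the authors for gene length within each library, so levels of different genes can be set side by side. The libraries held 15644 to 16975 genes at 1 TPM or above. Hlf was at 27.02 to 44.5 TPM in the caudal cells and 8.95 to 17.6 TPM in the yolk sac, and Kit at 105 to 159 and 42.2 to 98.9 TPM. Ptprc, which encodes CD45, was at 2.31 to 4.72 TPM in all 6 libraries. Yolk sac replicate 2 stood apart. There, 16 endoderm markers (the epithelium that lines the yolk sac) summed to 13144 TPM. The sum was 753 TPM for yolk sac replicate 1 and 4.18 TPM for replicate 3, and 2.53 to 3.64 TPM over the caudal libraries. The 7 markers of primitive red cells summed to 1354 TPM in that library, against 6.11 to 19.2 TPM elsewhere, and the 10 hematopoietic markers to 273 TPM, against 542 to 890 TPM. The plot of log2 differences therefore shows each tested member with and without that library.

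Fzd1, a Frizzled receptor gene, was the 1 member that passed the test between the tissues, and it was higher in the caudal cells. Fzd2, Fzd3, Ryk, Sfrp2, Dvl3, Gsk3b and Ctnnb1 also had every caudal value above every yolk sac value but did not pass. All 7 Wnt ligand genes of the list, and the targets Axin2, Lgr5, Rnf43 and Sp5, stayed below 1 TPM in all 6 libraries. The remaining target on the list, Znrf3, was at 4.99 to 9.03 TPM. Of the 40 genes, 22 reached 1 TPM in at least 3 libraries and were tested, and 18 did not. The test was limma on log2(TPM + 1) over all 16436 genes past that filter, with Benjamini-Hochberg adjustment over all of them and a threshold of 0.05.

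Among the 22 tested members 1 passed as higher in the caudal cells (background 0.347% of tested genes) and 0 as higher in the yolk sac (0.0365%) by limma. At an unadjusted p under 0.05 7 members were higher in the caudal cells (7.65%) and 0 in the yolk sac (1.98%). The values of 8 members did not overlap with the caudal cells higher (11.5%), and those of 0 members with the yolk sac higher (4.14%). Differences were positive, meaning higher in the caudal cells, for 16 of the 22, with a median of 0.46 on the log2 scale, against 62% of all tested genes and a median of 0.09. Without yolk sac replicate 2 the difference was positive for 19 (52.4% of all tested genes), with a median of 0.29 against 0.02, and 1 member passed (0.335%). A gene can pass the filter through the tissue where it is high, as Fzd2 did with its 3 caudal libraries, so these counts describe the tested genes only. The members were also chosen with earlier results of these data known. The background shares, here and below, are therefore no test of an excess among the members.

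**Figure D1:**
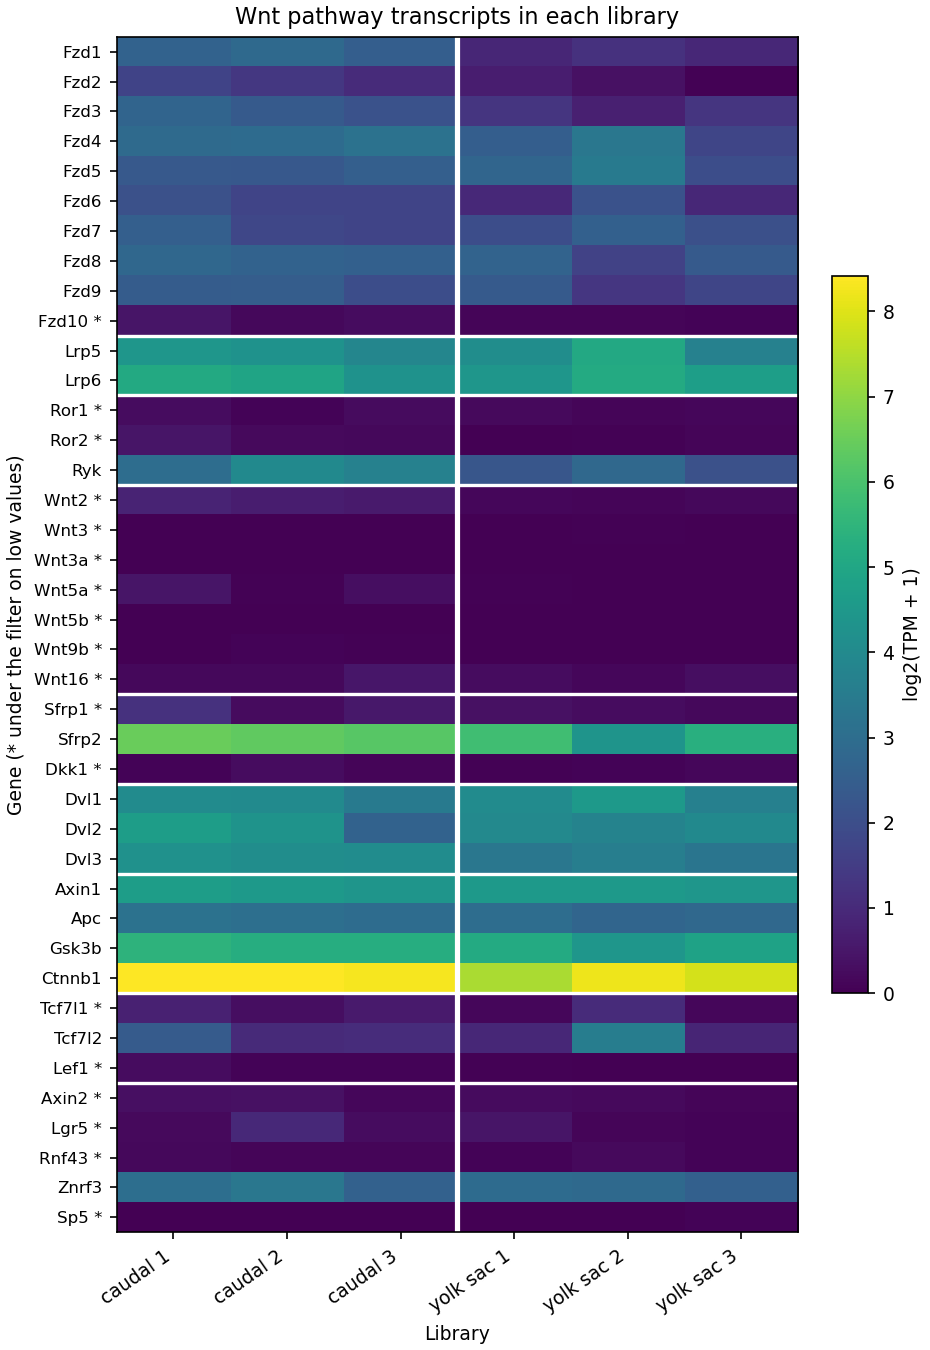
Level of each of the 40 Wnt pathway genes (rows, grouped by pathway step) in each library (columns, caudal to the left and yolk sac to the right of the white line) as log2(TPM + 1); an asterisk marks the 18 genes under the filter. Ctnnb1 and Sfrp2 are the brightest rows, and the ligand rows are dark in all 6 libraries.

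Fzd1 was at 5.22, 6.28 and 4.75 TPM in caudal replicates 1 to 3 and at 0.86, 1.32 and 0.90 TPM in yolk sac replicates 1 to 3. The lowest caudal value was well above the highest yolk sac value, and both groups were tight. The means were 5.42 TPM ± 0.78 (SD, n = 3) and 1.03 ± 0.25 (SD, n = 3), a log2 difference of 1.66 (SE 0.23) or 3.16-fold on the log2(TPM + 1) scale, with a limma adjusted p of 0.0314. The intronless gene lies on chromosome 5 (4753839 to 4758035, GRCm38) in GENCODE M21, on the minus strand, and no exon of another gene overlaps it. The RefSeq start used for the Fzd1 promoter lies upstream of that span. In these bulk libraries a smaller share of expressing cells and less RNA per cell cannot be told apart. The difference was 1.76 (SE 0.22, limma adjusted p = 0.0351) without yolk sac replicate 2, but leaving out any of the other 5 libraries ended the call, with limma adjusted p between 0.108 and 0.146. The call also ended with an endoderm covariate (limma adjusted p = 0.108), quantile normalization (0.0611), no filter (0.173) and the replicate number as a block (0.132), over alternatives that ran from 0.00101 to 0.19.

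Fzd3, a Frizzled known for its part in planar polarity and axon guidance, was at 5.61, 4.17 and 3.37 TPM in the caudal libraries and 1.48, 0.66 and 1.48 TPM in those of the yolk sac. No values overlapped, and yolk sac replicate 2 was the lowest. The log2 difference was 1.29 (SE 0.27, limma adjusted p = 0.125). Fzd2, which is close in sequence to Fzd1 and Fzd7, was at 2.22, 1.56 and 1.03 TPM in the caudal cells and 0.58, 0.30 and 0.034 TPM in the yolk sac. Its values were low in both tissues, without overlap, and its difference was 0.995 (SE 0.26, limma adjusted p = 0.231). Fzd2 was the member nearest above the filter. Sfrp1 and Tcf7l1, each above 1 TPM in 1 library, were nearest below it.

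The other Frizzled genes above the filter overlapped between the tissues. Fzd4, a receptor of endothelium that also binds the non-Wnt ligand Norrin, was at 6.49, 6.70 and 8.11 TPM in the caudal cells and 4.76, 9.16 and 2.39 TPM in the yolk sac. Fzd5 was at 4.09, 4.0 and 4.81 TPM in the caudal cells and 5.75, 10.0 and 3.01 TPM in the yolk sac. In both genes yolk sac replicate 2 held the highest and yolk sac replicate 3 the lowest of the 6 values. Fzd6, at 2.31 to 3.26 TPM in the caudal cells, had the same order in the yolk sac, with 0.96, 3.37 and 0.91 TPM. The log2 differences were 0.47 (SE 0.38) for Fzd4, -0.34 (SE 0.36) for Fzd5 and 0.51 (SE 0.35) for Fzd6, with limma adjusted p of 0.744, 0.806 and 0.704. Without yolk sac replicate 2 they were 0.87, 0.02 and 0.90, so that Fzd5 changed sign, and none passed.

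Fzd8 and Fzd9 went the other way within the yolk sac. Fzd8 was at 5.03 to 5.94 TPM in the caudal cells and at 5.36, 2.14 and 4.25 TPM in the yolk sac, where replicate 2 was the lowest. Fzd9 was at 2.97 to 4.62 TPM and at 4.17, 1.52 and 2.42 TPM, again lowest in that library. Their differences of 0.45 (SE 0.30) and 0.49 (SE 0.32) did not pass limma (adjusted p of 0.698 and 0.685) and were 0.15 and 0.24 without it. Fzd7 was at 4.90, 2.43 and 2.28 TPM in the caudal cells and 2.98, 4.92 and 3.20 TPM in the yolk sac, a difference of -0.19 (SE 0.31, limma adjusted p = 0.879). That difference was -0.012 without yolk sac replicate 2, -0.039 without caudal replicate 3, -0.071 without caudal replicate 2 and -0.46 without caudal replicate 1. Fzd10, the 1 Frizzled under the filter, was at 0.13 to 0.39 TPM and 0.056 to 0.083 TPM.

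**Figure D2:**
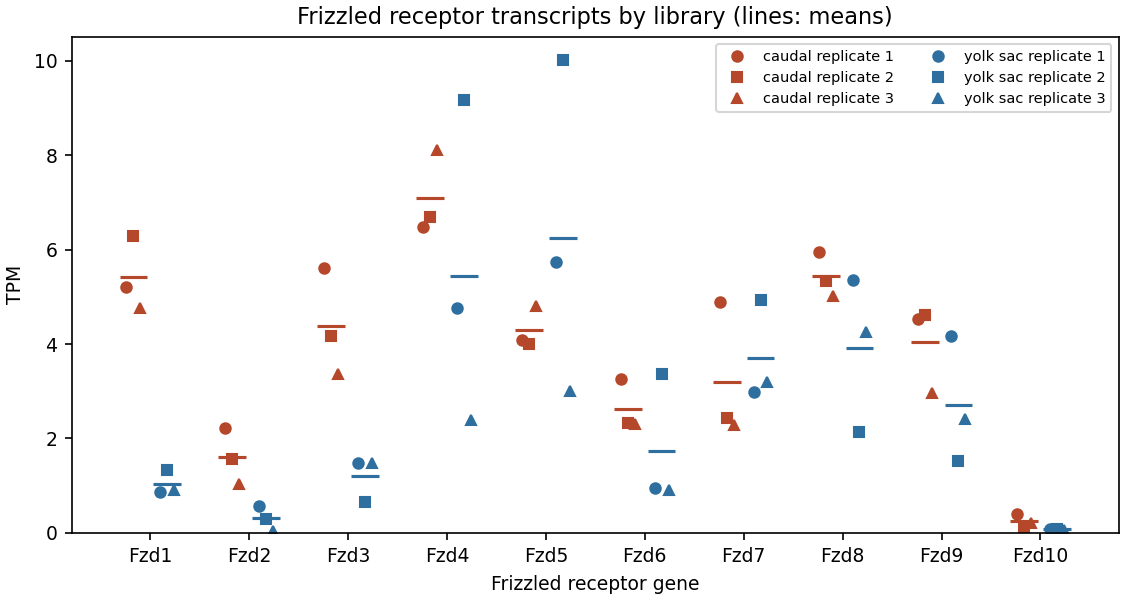
TPM of the 10 Frizzled receptor genes (horizontal axis) in each caudal (red) and yolk sac (blue) library, with a symbol for each replicate and a line at each mean. Fzd1, Fzd2 and Fzd3 separate by tissue above the filter, while Fzd4 and Fzd5 reach their highest values, 9.16 and 10.0 TPM, in yolk sac replicate 2.

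Summed over the 10 genes, Frizzled transcripts came to 42.6, 37.6 and 34.9 TPM in the caudal cells and 26.98, 33.5 and 18.6 TPM in the yolk sac, with no overlap. In the caudal cells Fzd1 made up 14.2% ± 2.29 (SD, n = 3) of that sum, and in the yolk sac 4.0% ± 0.82 (SD, n = 3). Fzd3 made up 11.3% ± 1.75 and 5.12% ± 3.0. The share of Fzd5 was 9.58% to 13.8% in the caudal cells and 16.1% to 29.9% in the yolk sac, higher in each yolk sac library although its TPM overlapped. Fzd4 held about the same mean share in both, 18.8% ± 4.11 and 19.3% ± 7.40. In yolk sac replicate 3, where endoderm markers were close to 0, Fzd8 was the largest component at 22.8%, followed by Fzd7 at 17.2% and Fzd5 at 16.1%. These shares are descriptions and were not tested.

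**Figure D3:**
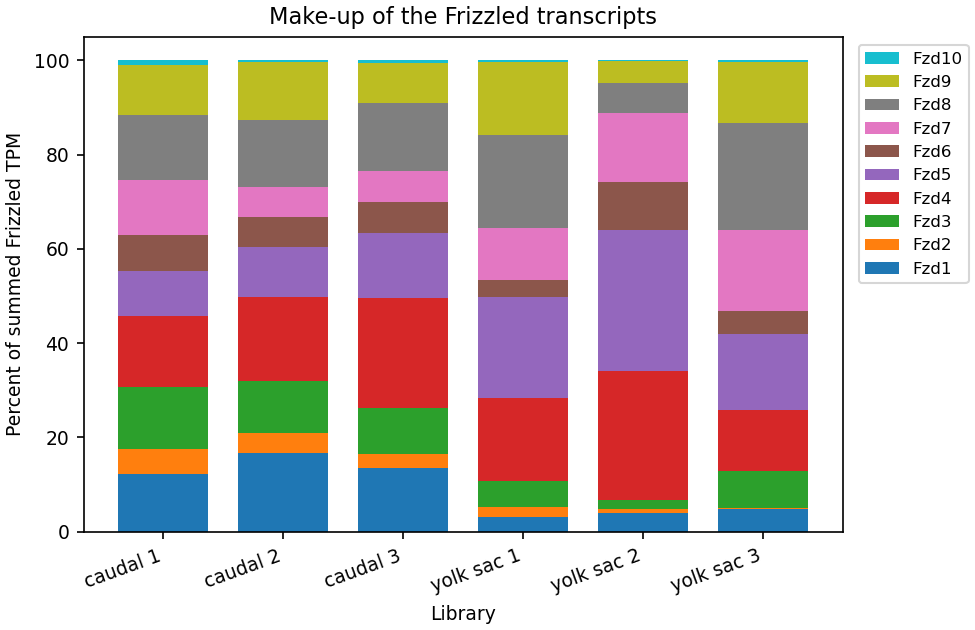
Each Frizzled gene as a percent of the summed Frizzled TPM (vertical axis) in each library (bars). The Fzd1 band at the base spans 12.2% to 16.7% in the caudal libraries and 3.20% to 4.84% in the yolk sac libraries.

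The coreceptor genes Lrp5 and Lrp6, which pair with a Frizzled in the beta-catenin branch, were more abundant than any Frizzled gene and did not pass. Lrp6 was at 33.3, 29.3 and 18.8 TPM in the caudal cells and 20.2, 34.1 and 25.1 TPM in the yolk sac. Lrp5 was at 20.3, 18.4 and 13.5 TPM and at 16.5, 32.8 and 11.9 TPM. Both were highest in yolk sac replicate 2. The log2 differences were 0.03 (SE 0.27) for Lrp6 and -0.12 (SE 0.35) for Lrp5, with limma adjusted p of 0.986 and 0.944. Without that library the difference of Lrp6 was 0.22 (SE 0.26) and the sign of Lrp5 changed, to 0.28 (SE 0.24), with no call.

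Ryk, an atypical tyrosine kinase-like receptor for Wnt, was at 6.96, 14.8 and 12.0 TPM in the caudal cells and 3.79, 6.25 and 3.22 TPM in the yolk sac. The tissues did not overlap, though caudal replicate 1 and yolk sac replicate 2 were close. The log2 difference was 1.16 (SE 0.33, limma adjusted p = 0.282), and 1.39 (SE 0.31, limma adjusted p = 0.164) without yolk sac replicate 2. The receptor kinases Ror1 and Ror2, which bind Wnt5a, stayed at or below 0.40 TPM in every library. Ror2 was at 0.40, 0.16 and 0.13 TPM in the caudal cells and 0, 0.043 and 0.078 TPM in the yolk sac.

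None of the 7 ligand genes among the 40 reached 1 TPM in any library. Of the ligand genes in the wider list, Wnt4 and Wnt2b did and were tested, and both were picked for mention after their values were seen. Wnt4 was at 1.34 to 1.85 TPM in the caudal cells and 0.72 to 1.21 TPM in the yolk sac, and Wnt2b at 0.98 to 1.84 TPM and 0.54 to 1.22 TPM, with limma adjusted p of 0.649 and 0.673. Of the 7 ligand genes among the 40, Wnt2 had the highest mean over the libraries. It was at 0.78, 0.59 and 0.54 TPM in the caudal cells and 0.12, 0.082 and 0.14 TPM in the yolk sac. Wnt16, which acts upstream of Notch in blood stem cell specification in zebrafish, was at 0.13 to 0.42 TPM and 0.11 to 0.23 TPM, with overlap. Wnt5a, the main ligand of the branches without beta-catenin, was at 0.39, 0.034 and 0.23 TPM in the caudal cells and 0.034, 0.014 and 0 TPM in the yolk sac. Wnt3a was listed at 0 in all 6 libraries, and Wnt3, Wnt5b and Wnt9b stayed at or below 0.062 TPM. Depth is unknown in these tables, so a value near 0 sets no limit on the true level.

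Across the 17 members under the filter with a value above 0, 6 had all caudal values above all yolk sac values (background 8.09% of genes under the filter) and 0 the reverse (2.25%). These 6 were Wnt2, Wnt5a, Wnt5b, Ror2, Fzd10 and Lef1. For Wnt5a the lowest caudal and highest yolk sac values were 0.0345 and 0.0337 TPM. Wnt5b stayed at or below 0.016 TPM in every library, so both separations are at the floor. The highest value of 8 of the 17 was in caudal replicate 1 (24.2% of all genes under the filter peaked there), among them Sfrp1, Wnt5a, Ror2 and Lef1. Of all tested genes 34.1% peaked in that library. So did 10 of 12 endothelial, 6 of 10 hematopoietic and 4 of 8 neural and somite markers. The counts were 3 of 10 for macrophage, 1 of 7 for primitive red cell and 0 of 16 for endoderm markers. Of the 12 mesenchymal markers 5 also had their highest value in that library, namely Pdgfra (2.29 TPM, against 0.003 to 0.52 TPM elsewhere), Col3a1 (1.25 TPM, against 0 to 0.025 TPM), Col1a1, Prrx1 and Tbx18. The other 7 did not, and Acta2, the most abundant of the 12, was at 26.1 TPM there and at 35.8 and 36.6 TPM in the other caudal libraries. Summed over the 12 markers, caudal replicate 1 was the lowest caudal library, with 38.6 TPM against 45.8 and 44.4 TPM. The yolk sac libraries were at 6.05 to 8.15 TPM. Acta2 made up most of each caudal sum, so the order of these sums says little about the other markers. The fibroblast marker Dcn was listed at 0 in the 3 caudal libraries and at 0, 0.031 and 0 TPM in the yolk sac, so it does not separate the libraries. The part of such cells in the low values was not tested.

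Sfrp2, a secreted Frizzled-related protein that binds Wnt ligands, was the most abundant extracellular member. It was at 89.3, 81.2 and 74.0 TPM in the caudal cells and 56.1, 19.6 and 39.1 TPM in the yolk sac. Every caudal library was above every yolk sac library, and yolk sac replicate 2 was the lowest. The means were 81.5 TPM ± 7.65 (SD, n = 3) and 38.3 ± 18.3 (SD, n = 3), and the log2 difference was 1.19 (SE 0.34, limma adjusted p = 0.284). It was 0.78 (SE 0.20, limma adjusted p = 0.215) without yolk sac replicate 2. Exons of Gm26771 overlap Sfrp2 on chromosome 3 (83766321 to 83774316), and reads of overlapping genes cannot be told apart here. Sfrp1 was at 1.31, 0.19 and 0.46 TPM in the caudal cells and 0.13 to 0.29 TPM in the yolk sac, and Dkk1, which blocks Lrp5 and Lrp6, at 0.067 to 0.21 TPM and 0.025 to 0.10 TPM.

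Of the Dishevelled genes, which relay the signal from the receptors, Dvl3 differed most. It was at 18.1, 16.6 and 16.2 TPM in the caudal cells and 9.21, 11.2 and 8.72 TPM in the yolk sac. The tissues were well apart, with a log2 difference of 0.75 (SE 0.19), but the limma adjusted p was 0.23. Dvl1 was at 9.86 to 15.5 TPM and 11.6 to 22.4 TPM, and Dvl2 at 24.6, 19.0 and 5.27 TPM in the caudal cells and 12.7 to 14.8 TPM in the yolk sac. Caudal replicate 3 held the lowest Dvl2 value of all, and without it the difference of Dvl2 was 0.60 (limma adjusted p = 0.481) in place of -0.02. Exons of Tas1r3 overlap Dvl1, and those of Acadvl and Mir324 overlap Dvl2.

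Ctnnb1, which encodes beta-catenin, the transcriptional partner of Tcf and Lef factors and a component of cadherin junctions, was the most abundant of the 40 genes. It was at 341, 337 and 313 TPM in the caudal cells and 164, 297 and 234 TPM in the yolk sac. Yolk sac replicate 2 came closest to the caudal values, without reaching them. The log2 difference was 0.55 (SE 0.22, limma adjusted p = 0.475), and 0.75 (SE 0.18, limma adjusted p = 0.204) without that library. Exons of Mir7090 and Ulk4 overlap Ctnnb1. The 12 endothelial markers, among them the cadherin gene Cdh5, summed to 353 to 506 TPM in the caudal cells and 109 to 207 TPM in the yolk sac, and 10 of the 12 did not overlap (11.5% of all tested genes, caudal cells higher). Their part in the Ctnnb1, Fzd1 and Ryk values was not tested.

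In the destruction complex, Axin1 and Apc overlapped between the tissues and Gsk3b did not. Axin1, the scaffold, was at 20.1 to 24.6 TPM in the caudal cells and 20.6 to 22.2 TPM in the yolk sac, and differed by 0.05 on the log2 scale (SE 0.18, limma adjusted p = 0.952). Apc was at 6.85 to 7.94 TPM and 5.74 to 7.03 TPM. Gsk3b, the kinase that phosphorylates beta-catenin, was at 42.6, 37.2 and 36.7 TPM in the caudal cells and 34.5, 20.4 and 28.1 TPM in the yolk sac. Its values did not overlap, although caudal replicate 3 and yolk sac replicate 1 were near each other. The difference of 0.50 (SE 0.22, limma adjusted p = 0.52) was 0.31 without yolk sac replicate 2.

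Of the 3 Tcf and Lef factor genes among the 40, Tcf7l2 was low outside particular libraries, and Tcf7l1 and Lef1 were low in every library. The family member Tcf7, which is in the wider list and was picked for mention after its values were seen, was at 9.78, 6.89 and 5.67 TPM in the caudal cells and 5.86, 4.49 and 3.18 TPM in the yolk sac, with overlap (limma adjusted p = 0.548). Tcf7l2 was at 4.34, 1.02 and 1.07 TPM in the caudal cells and 0.90, 10.8 and 0.82 TPM in the yolk sac. Yolk sac replicate 2 and caudal replicate 1 stood above the other 4 libraries. In yolk sac replicate 2 Tcf7l2 was 12.5 times the mean of the other yolk sac libraries, the highest such ratio among the 22 tested members. The log2 difference of -0.29 (SE 0.73, limma adjusted p = 0.934) became 0.60 without that library. Tcf7l1, a repressor in the absence of signal, was at 0.23 to 0.72 TPM and at 0.12, 1.03 and 0.098 TPM, and Lef1 at 0.049 to 0.21 TPM and 0.003 to 0.037 TPM.

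Transcripts of the universal Wnt target Axin2 were scarce, at 0.28, 0.31 and 0.10 TPM in the caudal cells and 0.18, 0.17 and 0.083 TPM in the yolk sac. The values of the tissues overlapped. Lgr5, a receptor for R-spondin, was at 0.94 TPM in caudal replicate 2 and 0.056 to 0.39 TPM in the other libraries. Sp5 was listed at 0 in 5 libraries and at 0.056 TPM in yolk sac replicate 3. Of the ubiquitin ligases that remove Frizzled receptors from the surface, Znrf3 was at 5.17 to 9.03 TPM in the caudal cells and 4.99 to 6.62 TPM in the yolk sac (log2 difference 0.20, SE 0.26, limma adjusted p = 0.84), while Rnf43 stayed at 0.054 to 0.15 TPM in all 6.

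**Figure D4:**
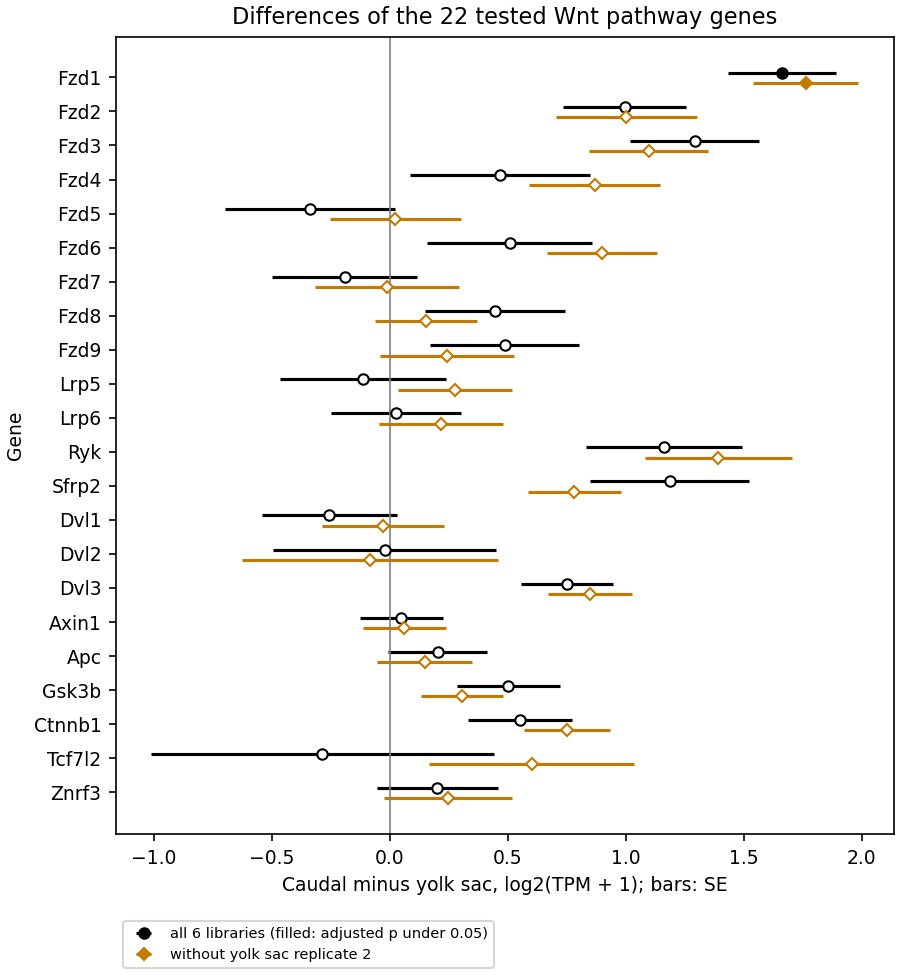
Log2 difference, caudal minus yolk sac, of the 22 tested genes with its SE, over all 6 libraries (black circles) and without yolk sac replicate 2 (orange diamonds); filled symbols passed limma. Only the Fzd1 symbols are filled, at 1.66 and 1.76, and Fzd5, Lrp5 and Tcf7l2 lie on opposite sides of 0 in the 2 fits.

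Of the 22 tested members, 8 had their highest value in yolk sac replicate 2 (15.8% of all tested genes did). They were Fzd4, Fzd5, Fzd6, Fzd7, Lrp5, Lrp6, Dvl1 and Tcf7l2. A further 6, namely Fzd3, Fzd8, Fzd9, Sfrp2, Apc and Gsk3b, had their lowest value there (45% of all tested genes did). In Fzd1, Ryk, Ctnnb1 and Dvl3 that library lay nearer to the caudal values than the other yolk sac libraries did. Its values were 1.498, 1.785, 1.49 and 1.248 times their mean. In yolk sac replicate 3, 9 of the 22 had their lowest value (13.6% of all tested genes did). They were Fzd2, Fzd4, Fzd5, Fzd6, Lrp5, Ryk, Dvl3, Tcf7l2 and Znrf3. All 16 endoderm markers were higher in yolk sac replicate 2 than in any other library, and the part of endoderm RNA in the member values was not tested.

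Beyond the 40 genes, 98 other genes of the pathway were listed by role, of which 51 were tested. By limma 0 passed in either direction, 7 had an unadjusted p under 0.05 with the caudal cells higher (7.65% of all tested genes) and 0 with the yolk sac higher (1.98%). Differences were positive for 41 of the 51 (62% of all tested genes), with a median of 0.27 against 0.09. The wider list was also chosen with earlier results known, so these shares are no test of an excess. Sost, which encodes the Lrp5 and Lrp6 antagonist sclerostin, was nearest to the threshold. Like Fzd2, it passed the filter through its 3 caudal libraries alone. It was at 2.19, 1.28 and 1.92 TPM in the caudal cells and 0.010, 0.044 and 0.28 TPM in the yolk sac, a difference of 1.33 on the log2 scale (SE 0.22, limma adjusted p = 0.0594).

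Among 3 tested ligand and secretion genes of that wider list, all positive, Wls, the carrier of Wnt proteins to the surface, was at 29.5 to 39.4 TPM in the caudal cells and 21.3 to 28.0 TPM in the yolk sac. Reck, a Wnt7 coreceptor component of endothelium, was at 4.34 to 5.41 TPM and 2.84 to 3.19 TPM, and 4 of 5 tested receptor partners were positive. Of 14 further kinase and destruction complex genes 12 were positive, and Csnk1e, a kinase of Dishevelled, was at 23.1 to 28.1 TPM and 7.83 to 17.8 TPM. Of 14 further nuclear factors 12 were positive, and the corepressor gene Tle3 was at 16.2 to 21.7 TPM and 7.56 to 15.8 TPM. Limma adjusted p was 0.512 for Wls, 0.45 for Reck and Csnk1e and 0.473 for Tle3.

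Planar polarity genes were split, with 4 of 7 positive, and Celsr2, an adhesion receptor of that branch, was at 1.83 to 4.06 TPM in the caudal cells and 0.69 to 1.98 TPM in the yolk sac (limma adjusted p = 0.563). Both tested Dishevelled regulators were positive, and Ccdc88c, which binds Dishevelled, was at 15.7 to 19.1 TPM and 14.4 to 16.2 TPM (limma adjusted p = 0.778). Of 4 further targets 2 were positive. Cd44, an adhesion receptor among them, was at 157 to 180 TPM in the caudal cells and 155, 55.3 and 126 TPM in the yolk sac, where replicate 2 was lowest (limma adjusted p = 0.576).

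The 40 genes lie on many chromosomes. Fzd1, Fzd9 and Fzd10 are all on chromosome 5 but far apart (from 4753839, 135248938 and 128600844). Wnt9b (103727364 to 103749821) and Wnt3 (103774150 to 103817957) lie near each other on chromosome 11. Of the 10 Frizzled genes 6 have an annotated coding transcript with 1 exon, as against 0 of the other 30 members. Fzd1, Fzd2, Fzd7, Fzd8, Fzd9 and Fzd10 are those 6. Among them Fzd1 passed the test, Fzd2 did not overlap, and Fzd7, Fzd8 and Fzd9 overlapped between the tissues. Fzd10, which was under the filter, did not overlap either.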

How the data were processed

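The submitters' processing notes name HISAT2, StringTie and the build mm10. Tool versions, the annotation release and the use of strand were not given in the sources used here. Per the file headers, the deposited values are TPM, treated as a signal scaled by the authors within a library. Unnamed assembled loci summed to 1000000 TPM and annotated genes came on top, at 555230 to 684549 TPM. Only the 47643 annotated gene IDs were kept, 27 symbols turned into dates were restored by ID, and TPM was summed per symbol. Depth is unknown, so no counting interval is given.

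The tissues were compared with limma 3.58.1 (R 4.3.3) on log2(TPM + 1), with tissue as the only term, an empirical Bayes trend on the mean and two-sided tests, over genes that reached 1 TPM in 3 or more libraries. Calls are at a Benjamini-Hochberg adjusted p of 0.05. The fit was also run on simulated data, but the outcome is not given here, so nothing is drawn from it. All 40 members are named. Of the wider list the gene with the smallest p in each step is named. Wnt4, Wnt2b and Tcf7 were added after their values were seen. Markers are given as sums, with values of single markers for some. The members and lists were chosen with earlier results of these data known. Gene coordinates come from GENCODE M21 (GRCm38, the assembly of mm10) and promoters from RefSeq. Alternatives tried were no filter, a mean of 10 TPM, pseudocounts of 0.1 and 5, rescaling to 1000000 TPM, median centring, quantile normalization, the replicate block, array weights, an endoderm covariate and leaving out libraries. Permutation tests were not used, and 3 against 3 libraries limit precision.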

Additional observations from a re-analysis of the deposited data

How the results depend on the processing

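The alternatives were tallied for 30 genes, the tested members and the wider-list gene with the smallest p in each step. Wnt4, Wnt2b and Tcf7 were left out of that tally. Of its 494 values 447 kept their direction and side of the threshold, 10 lost a call, 9 gained one and 28 changed sign. All 10 lost calls were of Fzd1, whose log2 difference stayed positive between 0.79 and 2.30 and whose limma adjusted p ran from 0.00101 to 0.19. The count of members passing toward the caudal cells, 1 with all libraries, was 0 with no filter, with quantile normalization (Fzd1 adjusted p = 0.0611), with the endoderm covariate, without yolk sac replicates 1 and 2 together, and when a mean of 10 TPM was required, which Fzd1 does not reach. Leaving out single libraries gave 0 to 1. With array weights, which were 4.44 for caudal replicate 2 and 3.24 for yolk sac replicate 3 against 0.23 for yolk sac replicate 2, 7 members passed, namely Fzd1, Fzd2, Fzd3, Ryk, Sfrp2, Dvl3 and Ctnnb1, and in the wider list 4 genes passed as higher in the caudal cells and 1 in the yolk sac.

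Over all genes 57 were called higher in the caudal cells and 6 in the yolk sac. These counts were 37 and 2 with a pseudocount of 5, 0 and 0 with no filter (2547 genes at an unadjusted p under 0.05), 8 and 0 with a mean of 10 TPM, 774 and 182 with array weights, 8 and 0 with the endoderm covariate, 13 and 0 without yolk sac replicates 1 and 2, and 2 to 55 and 0 to 6 without single libraries. With the replicate number as a block 0 members, 0 genes with the caudal cells higher and 0 with the yolk sac higher passed (Fzd1 adjusted p = 0.132, and 1611 genes at an unadjusted p under 0.05). Deviations of libraries with the same number correlated at -0.02 to 0.02, so the numbers are not shown to pair samples, and 1 of 3 caudal libraries correlated best with its own number.

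Sign changes were of genes without a call. With array weights the log2 differences were 0.12 for Fzd5, 0.42 for Lrp5, 0.20 for Dvl1, 0.27 for Dvl2 and 0.20 for Tcf7l2. With the endoderm covariate they were 0.41 for Fzd5, 0.068 for Fzd7, 0.60 for Lrp5, 0.21 for Dvl1 and 1.10 for Tcf7l2. Without yolk sac replicates 1 and 2 they were 0.40 for Fzd5, 0.50 for Lrp5, 0.18 for Dvl1 and 0.63 for Tcf7l2. Median centring gave -0.064 for Lrp6 and -0.041 for Axin1, and a pseudocount of 5 gave 0.032 for Dvl2. Without single libraries the ranges were -0.71 to 0.024 for Fzd5, -0.42 to 0.28 for Lrp5, -0.14 to 0.26 for Lrp6, -0.42 to 0.60 for Dvl2, -0.017 to 0.12 for Axin1 and -0.75 to 0.60 for Tcf7l2. The cause of these changes was not tested. With 100 cells per library and unknown depth, values of weakly expressed members are imprecise.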
